A study of Mus musculus with 38 samples.

Results

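Krt7, Krt8, Krt18 and Krt19 are the keratins of simple, single-layered epithelia. They were chosen by name and make up 4 of the 23475 genes of the bulk RNA-seq table, and 4 of the 52 keratin genes in it. They were followed through retinoic acid (RA) differentiation of mouse embryonic stem cells (mESCs), in bulk RNA-seq and in 2 kinds of single-cell RNA-seq. All cells were of the E14 mESC line. The starting cells were grown in 2i/L, a medium with inhibitors of MEK and GSK3 plus LIF, and gave 2 bulk libraries. Differentiation was carried out in N2B27 medium with 0.25 µM RA, and whole cultures were sequenced at 9 times from 6 h to 96 h, with 1 bulk library per time. Cells without PDGFRA (PDGFRA-) were split by CD24 into 4 quartile gates at 48 h (Q1 to Q4) and 3 tercile gates at 72 h (T1 to T3). A gate of PDGFRA+/CD24- cells was added at 72 h, and each gate gave 1 library. At 96 h, ectoderm-like cells (CD24+/PDGFRA-) and extraembryonic endoderm (XEN)-like cells (PDGFRA+/CD24-) were sorted, with 2 libraries each. Both sorted populations were also kept in N2B27 with 20 ng/ml EGF and 10 ng/ml FGF2 after the RA treatment. The ectoderm-like culture was adherent and sequenced at passage 5, the XEN-like culture grew as floating aggregates and was sequenced after 3 weeks, and each gave 1 library.

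Keratins are intermediate filament proteins that build filaments only as obligate pairs of a type I and a type II chain. Krt8 and Krt7 are type II keratins, Krt18 and Krt19 are type I keratins, and Krt8 with Krt18 is the first pair to be made in the mouse embryo, in the trophectoderm and in extraembryonic endoderm. Krt19 usually joins Krt8 in gland, duct and gut epithelia, and Krt7 marks ducts, trophoblast and several other simple epithelia. Undifferentiated stem cells and neural ectoderm use other filament proteins, among them vimentin (Vim) and nestin (Nes).

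Krt7, Krt8 and Krt18 lie on chromosome 15, and the pair Krt8 and Krt18 lies side by side (GENCODE M21 annotation of GRCm38, which is mm10). Krt8 runs from chr15:101996698-102004482 on the minus strand and Krt18 from chr15:102028180-102032027 on the plus strand, with 23697 bases and 0 annotated genes between them. Krt7 lies at chr15:101411043-101430313 on the plus strand, 566384 bases from Krt8. Krt19 lies apart, at chr11:100140810-100148665 on the minus strand. Krt7 overlaps the antisense gene Gm671, Krt8 overlaps the non-coding RNA Gm36026 on the other strand and has 1 processed pseudogene, Krt8-ps, and Krt18 and Krt19 overlap no annotated gene. Counts of Krt7 and Krt8 are uncertain to the extent that reads of such partners or copies were assigned to them.

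Because Krt8 and Krt18 are neighbours in the genome, their promoter sequences are shown with that of Krt7. They cover the 250 bases before the gene start given by RefSeq (GRCm38.p6), on the strand of the gene, 5′ to 3′, and 3 of the 4 genes had an entry. Krt19 had none. The RefSeq starts lie inside the GENCODE genes, 1360 bases for Krt7, 140 bases for Krt8 and 36 bases for Krt18, so the Krt7 window lies wholly within the GENCODE gene. The windows are chr15:101412153-101412402 (plus strand) for Krt7, chr15:102004343-102004592 (minus strand) for Krt8 and chr15:102027966-102028215 (plus strand) for Krt18. Capitals mark matches, on either strand, to the 6 motifs searched.
Krt7: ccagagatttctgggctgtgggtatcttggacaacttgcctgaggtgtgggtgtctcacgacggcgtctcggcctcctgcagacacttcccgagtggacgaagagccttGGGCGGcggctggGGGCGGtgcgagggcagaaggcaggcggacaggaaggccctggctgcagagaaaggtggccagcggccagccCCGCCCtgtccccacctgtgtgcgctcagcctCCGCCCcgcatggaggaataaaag
Krt8: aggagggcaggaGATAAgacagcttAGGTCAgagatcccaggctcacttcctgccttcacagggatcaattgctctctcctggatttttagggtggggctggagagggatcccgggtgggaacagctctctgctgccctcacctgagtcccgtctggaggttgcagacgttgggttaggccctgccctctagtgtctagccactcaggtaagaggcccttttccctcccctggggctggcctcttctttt
Krt18: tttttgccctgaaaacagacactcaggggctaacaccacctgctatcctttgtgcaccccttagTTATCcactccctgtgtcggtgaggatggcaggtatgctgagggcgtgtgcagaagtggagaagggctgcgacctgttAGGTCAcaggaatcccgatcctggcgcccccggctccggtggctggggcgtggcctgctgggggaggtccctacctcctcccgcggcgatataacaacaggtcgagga
The Krt7 window held 4 matches to the GC box GGGCGG, at 141 and 128 bases before the start on the strand of the gene and at 56 and 24 bases on the other strand, where the capitals show the reverse complement. The Krt8 window held GATAA at 238 bases and AGGTCA, a motif of nuclear receptors, at 225 bases before the start. The Krt18 window held the same 2 motifs, GATAA on the other strand (TTATC) at 186 bases and AGGTCA at 108 bases. None of the 3 windows held the TATA box TATAAA, the AP-1 motif TGANTCA or the CCAAT box. Among the 32851 windows of the same length before all RefSeq gene starts, GATAA was found in 22.6%, AGGTCA in 14%, GGGCGG in 32.7%, TATAAA in 12.4%, TGANTCA in 6.75% and CCAAT in 33.8%. GC content was 66% for Krt7, 58% for Krt8 and 60.4% for Krt18, with 16, 3 and 12 CpG dinucleotides. These matches describe letters only, and no binding was measured here.

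The 25 bulk libraries held 1063809 to 2459424 unique molecular identifiers (UMIs, tags by which each captured RNA molecule is counted once), with a median of 1665335. Levels are given as CPM, the UMIs of a gene per 1000000 UMIs of its library, and intervals are exact 95% intervals that cover counting error only. Marker genes followed the labels in part. In the edgeR tests described below, all 11 XEN markers rose from mESCs to sorted XEN-like cells, where 12.3% of all genes tested did. All 12 ectoderm markers rose from mESCs to sorted ectoderm-like cells, where 9.82% of all genes did. Pdgfra of the XEN list and Cd24a of the ectoderm list are the genes of the proteins used for sorting. The study named Sparc, Col4a1, Lama1, Dab2, Prtg, Mdk and Fabp5 from principal components of its own single cells. These rises are thus no independent check of the labels. Of the ectoderm markers, Mdk, Prtg and Meis1 also rose in XEN-like cells. Of the XEN markers, Col4a1, Col4a2, Lamb1, Dab2, Gata4, Gata6, Sox17 and Pdgfra also rose in ectoderm-like cells. Summed XEN markers were at 485 CPM and 1779 CPM in ectoderm-like replicates 1 and 2, against 197 to 281 CPM in mESCs and 6665 to 12050 CPM in sorted XEN-like cells. Summed pluripotency markers, at 13437 to 18354 CPM in mESCs, were at 4524 to 6267 CPM in sorted XEN-like cells and at 432 to 790 CPM in ectoderm-like cells. Most of the sum was Dppa5a, at 10994 CPM and 15850 CPM in mESCs and at 5948 CPM and 4352 CPM in sorted XEN-like cells. All 12 pluripotency markers fell from mESCs to XEN-like cells, where 10.5% of all genes tested fell. The XEN-like culture held 122929 CPM of 10 stomach epithelium markers, against 34.7 to 142 CPM in every other library. In bulk libraries, fewer cells that make an RNA and less of that RNA per cell cannot be told apart.

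Whole cultures gained all 4 keratins between 36 h and 96 h of RA (plot of levels over time). Each time point has 1 library, so these steps have no replicate check. Krt18, the type I partner of Krt8, stood at 1.75 CPM and 1.31 CPM in the 2 mESC libraries. It lay between 1.99 CPM and 5.45 CPM from 6 h to 36 h, on 4 to 10 UMIs. It reached 29.7 CPM at 48 h, 60.6 CPM at 60 h, 76.8 CPM at 72 h, 122 CPM at 84 h, reaching 169 CPM at 96 h. Every library from 48 h on was above every earlier one. The step from 36 h to 48 h was 5.45-fold (2.72 to 12.4), and the 96 h level was 96.4-fold (37.3 to 356) that of mESC replicate 1, which had 4 UMIs.

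Krt8, the type II partner, had more UMIs than Krt18 in both mESC libraries, 22 and 13 against 4 and 3. It stood at 9.62 CPM and 5.66 CPM in mESCs, at 9.78 CPM at 6 h and 8.37 CPM at 12 h, and at 4.48 CPM at 24 h and 3.63 CPM at 36 h. The 36 h level was 0.377-fold (0.125 to 0.959) that of mESC replicate 1, while the level of mESC replicate 2 lay within the counting interval of the 36 h level, 1.33 to 7.90 CPM. Krt8 then stood at 15.5 CPM at 48 h, 43.8 CPM at 60 h, 65.4 CPM at 72 h, 104 CPM at 84 h, reaching 160.4 CPM at 96 h. It was 4.26-fold (1.78 to 12.3) higher at 48 h than at 36 h, and 10.4-fold (7.40 to 14.9) higher at 96 h than at 48 h, against 5.68-fold (4.40 to 7.42) for Krt18. The 96 h level was 16.7-fold (10.8 to 27) and 28.3-fold (16.3 to 53.8) that of the 2 mESC libraries.

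Krt19, the other type I chain, was still within its early range at 48 h. It lay between 1.21 CPM and 2.61 CPM in mESCs and up to 48 h, where it stood at 2.03 CPM. From 60 h it stood at 6.00, 13.6, 29 and 51.3 CPM in 12 h steps. The step from 36 h to 48 h was 1.68-fold (0.275 to 17.6), within counting error, and the step from 48 h to 96 h was 25.2-fold (10.5 to 79.3). Krt7, the least abundant of the 4, was at 0 UMIs and 3 UMIs in the mESC libraries and at 0 or 1 UMI at each time up to 36 h. For the count of 0 in mESC replicate 1, the floor of 3 UMIs is 1.31 CPM and the exact interval reaches 1.61 CPM. Krt7 stood at 4.88 CPM at 48 h, 6.00 CPM at 60 h, 6.54 CPM at 72 h, 8.82 CPM at 84 h, reaching 16.4 CPM at 96 h. It had 12 UMIs at 48 h against 1 UMI at 36 h, an 8.06-fold difference with an interval of 1.19 to 345.

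**Figure D1:**
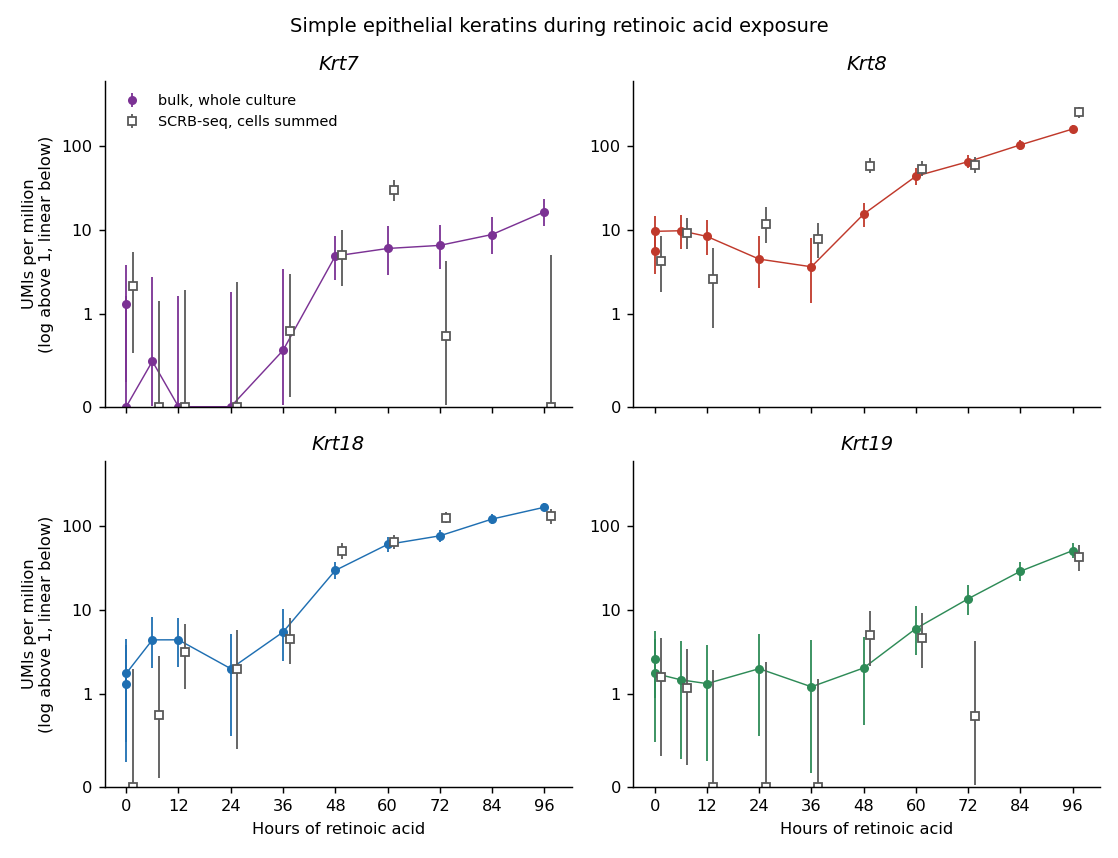
Levels of Krt8, Krt18, Krt19 and Krt7 (CPM, log axis, linear near 0) against hours of RA in bulk RNA-seq and SCRB-seq. Filled points are single bulk libraries, with 2 mESC libraries at 0 h. Open squares, drawn slightly to the right, are SCRB-seq cells summed per time. Bars are exact 95% counting intervals. In bulk, Krt18 and Krt8 end at 169 CPM and 160.4 CPM at 96 h, Krt19 at 51.3 CPM and Krt7 at 16.4 CPM.

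Krt8 and Krt18 differed in their order over the CD24 and PDGFRA gates (plot of levels by gate, sorted cells and cultures). Within the PDGFRA- cells at 48 h, Krt18 stood at 14 CPM in Q1, 21.4 CPM in Q2, 33.8 CPM in Q3 and 22.1 CPM in Q4. Krt8 stood at 5.35, 5.00, 3.76 and 6.95 CPM in the same order. The ratio of Q4 to Q1 was 1.57 (0.891 to 2.84) for Krt18 and 1.30 (0.476 to 3.72) for Krt8, so the outer quartiles were not told apart by counting. The ratio of Q3 to Q1 was 2.41 (1.37 to 4.34) for Krt18. The whole 48 h culture held 2.85-fold (1.72 to 4.77) as much Krt8 as the 4 PDGFRA- gates summed, and 1.35-fold (0.995 to 1.82) as much Krt18. Gapdh was at 4027 CPM in the whole culture and at 2155 to 2675 CPM in the gates, and relative to it the ratio was 1.71 for Krt8 and turned to 0.806 for Krt18. Krt19 and Krt7 had at most 6 UMIs in any quartile.

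At 72 h, Krt8 was highest in the PDGFRA+ gate and lower in each tercile from T1 to T3 of the PDGFRA- cells. It stood at 44.3 CPM in T1, 26.5 CPM in T2, 15.4 CPM in T3 and 105 CPM in PDGFRA+/CD24- cells. Krt18 stood at 118, 103, 53 and 101 CPM in the same order. Krt8 was 2.37-fold (1.73 to 3.29) higher in the PDGFRA+ gate than in T1, while the ratio for Krt18 was 0.859 (0.677 to 1.09). From T3 to T1, Krt8 differed by 2.88-fold (1.71 to 5.07) and Krt18 by 2.23-fold (1.67 to 3.01). Krt19 stood at 25.6 CPM in T1, 18.5 CPM in T2, 0.768 CPM (1 UMI) in T3 and 17.6 CPM in the PDGFRA+ gate. The PDGFRA+ to T1 ratio of Krt19 was 0.688 (0.389 to 1.2), within counting error. Krt7 had 9, 6 and 4 UMIs in T1 to T3, the order of Krt8, but 1 UMI in the PDGFRA+ gate, a ratio of 0.105 (0.0024 to 0.759) to T1. Each of these values compares single libraries, not conditions.

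**Figure D2:**
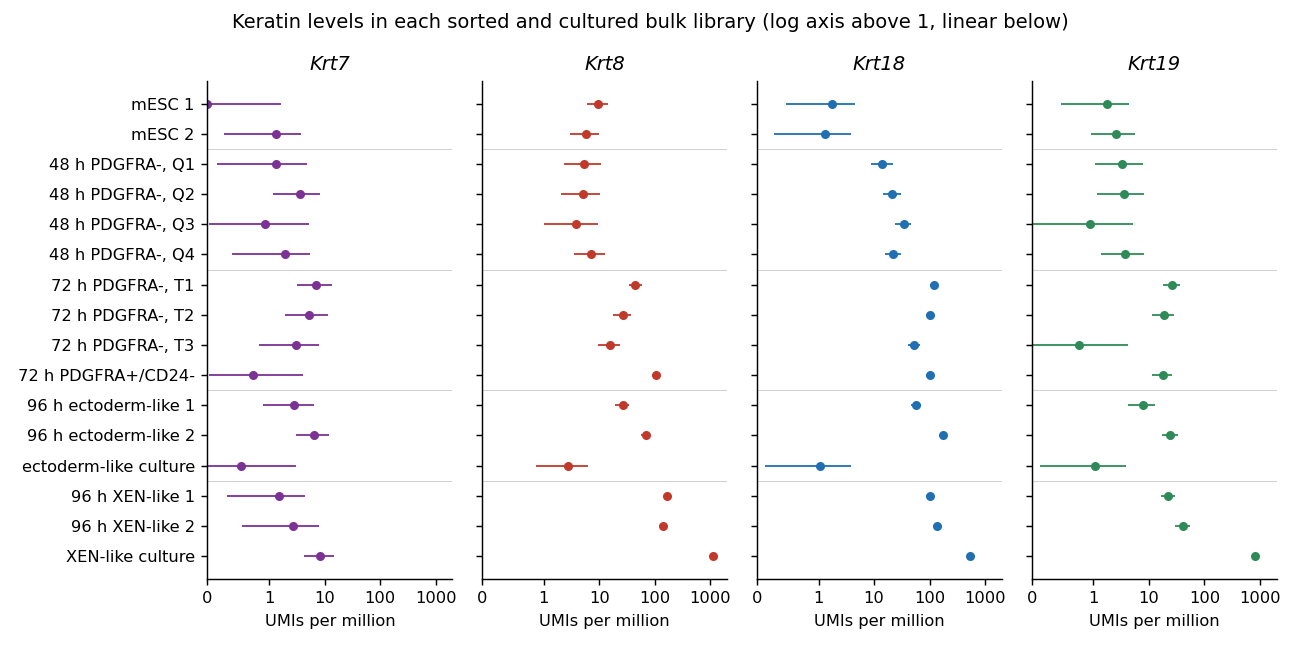
Levels of the 4 keratins (CPM, log axis with a linear part at its low end) in mESCs, in the gates at 48 h and 72 h, in sorted ectoderm-like and XEN-like cells at 96 h and in both long-term cultures. Points are single libraries and bars are exact 95% counting intervals. Krt8 is at 1107 CPM in the XEN-like culture and at 2.68 CPM in the ectoderm-like culture, the highest and the lowest Krt8 of all 25 libraries.

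Sorted XEN-like cells at 96 h held more Krt8, Krt18 and Krt19 than mESCs. Krt8 stood at 165 CPM and 142 CPM in XEN-like replicates 1 and 2, against 9.62 CPM and 5.66 CPM in mESCs. Krt18 stood at 100.1 CPM and 138 CPM, and Krt19 at 22.3 CPM and 41 CPM. For each of the 3, both XEN-like libraries were above both mESC libraries, as they were for 37.3% of the 8945 genes tested. By edgeR's quasi-likelihood test with Benjamini-Hochberg adjustment over 8945 genes, the log2 fold change was 4.12 (SE 0.49, adjusted p = 0.000204) for Krt8, 6.03 (SE 0.68, adjusted p = 0.000147) for Krt18 and 3.60 (SE 0.67, adjusted p = 0.00268) for Krt19. Of the 4 keratins, 3 were tested and rose, where 12.3% of all genes tested rose and 10.5% fell. Their median was 4.12 against -0.06 over all genes. Krt18 and Krt19 had at most 6 UMIs in an mESC library, so they passed the filter on counts only through the sorted cells. This count and this median are thus partly set by the filter. Krt7 had 3 UMIs in each XEN-like library, 1.52 CPM and 2.73 CPM, and was too low for the filter on counts. Without that filter its log2 fold change was 1.29 (SE 1.14, adjusted p = 0.552).

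Sorted ectoderm-like cells also held more of the 3 keratins than mESCs, with a wide gap between their replicates. Krt18 stood at 56.7 CPM and 172 CPM in replicates 1 and 2, Krt8 at 26.1 CPM and 69.1 CPM, and Krt19 at 7.78 CPM and 24.6 CPM. Replicate 2 was higher 3.03-fold for Krt18, 2.65-fold for Krt8 and 3.16-fold for Krt19. It is the library in which summed XEN markers were at 1779 CPM against 485 CPM in replicate 1, and the part of this in the keratin levels was not tested. The log2 fold change against mESCs was 5.88 (SE 0.68, adjusted p = 0.000181) for Krt18, 2.33 (SE 0.49, adjusted p = 0.00598) for Krt8 and 2.54 (SE 0.70, adjusted p = 0.0255) for Krt19 in the same edgeR fit. All 3 rose, where 9.82% of all genes did and 9.27% fell, and their median was 2.54 against 0.05 over all genes. Here too Krt18 and Krt19 passed the filter on counts only through sorted cells, which partly sets this count and median. Without ectoderm-like replicate 2 the adjusted p of Krt8 was 0.0800 and that of Krt19 was 0.253, and without mESC replicate 1 that of Krt19 was 0.0859. Krt18 passed the test whichever of the 6 libraries was left out. Krt7 stood at 2.78 CPM and 6.46 CPM, with a log2 fold change of 2.38 (SE 1.00, adjusted p = 0.0919) without the filter. The comparisons of both sorted populations share the mESC libraries.

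Between the sorted populations, Krt8 was the 1 keratin of the 4 to pass the test. It was higher in XEN-like than in ectoderm-like cells, with a log2 fold change of 1.78 (SE 0.43, adjusted p = 0.0189), where 6.98% of all genes were higher and 5.71% lower. This call did not hold without ectoderm-like replicate 1 (adjusted p = 0.146), XEN-like replicate 1 (adjusted p = 0.0748) or XEN-like replicate 2 (adjusted p = 0.0666), though Krt8 stayed higher in each case. Krt18 overlapped between the populations, at a log2 fold change of 0.16 (SE 0.46, adjusted p = 0.871). Its sign turned without ectoderm-like replicate 1 (-0.45) or XEN-like replicate 2 (-0.21). Krt19 also overlapped, at 1.07 (SE 0.55, adjusted p = 0.241). For Krt7, the value without the filter was -1.08 (SE 0.90, adjusted p = 0.612). The difference between Krt8 and Krt18 in this comparison was not tested.

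The 2 culture libraries lay far apart. In the XEN-like culture Krt8 stood at 1107 CPM (1604 UMIs), Krt19 at 832 CPM (1206 UMIs), Krt18 at 542 CPM (785 UMIs) and Krt7 at 8.28 CPM (12 UMIs). The ectoderm-like culture held 5 UMIs of Krt8, 2 of Krt18, 2 of Krt19 and 1 of Krt7, or 2.68, 1.07, 1.07 and 0.535 CPM. Krt8 and Krt18 were at their lowest there, within counting error of the next library, the 36 h culture for Krt8 (6 UMIs) and mESC replicate 2 for Krt18 (3 UMIs). Of the lineage markers, summed XEN markers were at 10098 CPM in the XEN-like culture and at 2235 CPM in the ectoderm-like one, and summed ectoderm markers were at 1552 CPM and 1653 CPM. Cd24a, the gene of the marker used to sort the ectoderm-like cells, was at 421 CPM and 18.7 CPM in the same order. Their part in the keratin levels was not tested. Krt19 gained most in the XEN-like culture, from the 22.3 CPM and 41 CPM of sorted cells.

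Against sorted XEN-like cells, the log2 fold change of the XEN-like culture was 4.65 (SE 0.53, adjusted p = 6.22e-05) for Krt19, 2.77 (SE 0.44, adjusted p = 0.000912) for Krt8 and 2.10 (SE 0.51, adjusted p = 0.0119) for Krt18, by edgeR over 11229 genes. Krt7 was at 1.94 (SE 1.13, adjusted p = 0.252). So 3 of 4 rose, where 11.2% of all genes rose and 7.61% fell, and the median of the 4 was 2.44 against 0.00 over all genes. The call of Krt18 did not hold without XEN-like replicate 1 (adjusted p = 0.0820). Each culture has 1 library, which the fit assumes to vary like the replicated groups, so these p-values and those below hold no spread between cultures.

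Against sorted ectoderm-like cells, the ectoderm-like culture was lower in Krt18, with a log2 fold change of -6.71 (SE 0.96, adjusted p = 0.000746), in Krt8, at -4.18 (SE 0.74, adjusted p = 0.0036), and in Krt19, at -3.87 (SE 1.01, adjusted p = 0.0289). Krt7 was at -2.98 (SE 1.55, adjusted p = 0.248). So 3 of 4 fell, where 3.46% of all genes fell and 5.98% rose, and the median was -4.03 against -0.07 over all genes. The call of Krt19 did not hold without ectoderm-like replicate 2 (adjusted p = 0.177). The difference between the 2 culture effects was 8.81 (SE 1.08, adjusted p = 0.000475) for Krt18, 8.52 (SE 1.09, adjusted p = 0.000589) for Krt19, 6.95 (SE 0.87, adjusted p = 0.000513) for Krt8 and 4.92 (SE 1.91, adjusted p = 0.153) for Krt7 on the log2 scale. Here 3.76% of all genes passed in this direction and 2.19% in the other, and the median of the 4 was 7.74 against 0.03 over all genes.

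Between the single culture libraries, Krt8 was 413-fold (177 to 1275) higher in the XEN-like culture and Krt18 506-fold (140 to 4184), on 2 UMIs in the ectoderm-like culture. For Krt19 the ratio was 777 (215 to 6424), and for Krt7 15.5 (2.29 to 661). Tff1, a stomach peptide of the XEN-like culture, stood in the other 24 libraries at 0.0234% to 0.107% of its level there, and at 0.0606% in the ectoderm-like culture. The ectoderm-like culture held 0.242% of the XEN-like culture's Krt8, 0.198% of its Krt18, 0.129% of its Krt19 and 6.47% of its Krt7. How much of the few keratin UMIs in the ectoderm-like culture came from such shared signal was not tested.

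**Figure D3:**
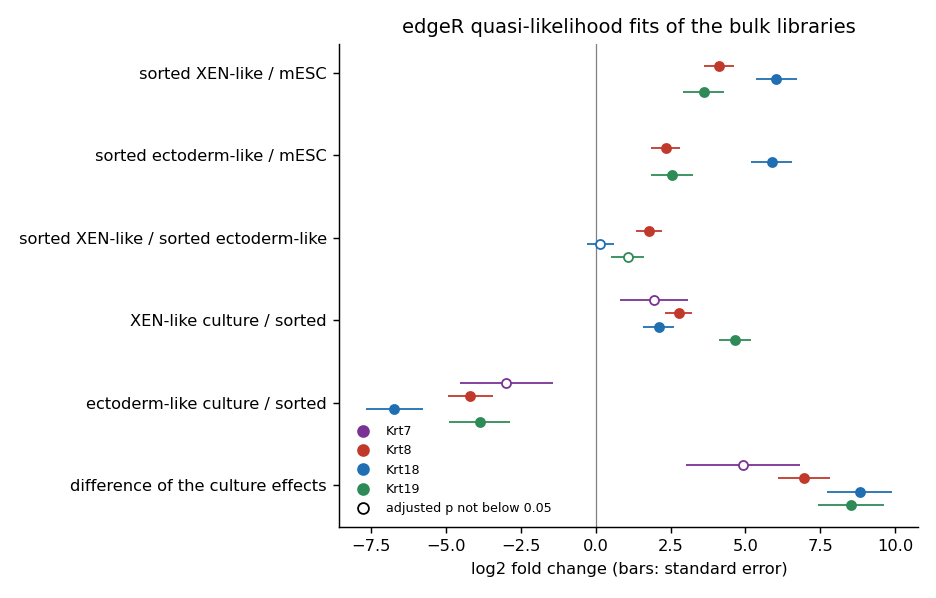
Log2 fold changes of Krt8, Krt18, Krt19 and Krt7 in the comparisons of sorted cells and cultures, from edgeR's quasi-likelihood fits, with bars of 1 SE. The culture effects lie on opposite sides of 0 for all 4 keratins, from 1.94 to 4.65 for the XEN-like lineage and from -6.71 to -2.98 for the ectoderm-like lineage, and Krt7 passed the test in neither.

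The 25 libraries were put in order of the level of each keratin. Neighbours in such an order lie close by construction, and low counts give wide intervals, so the number of steps does not show continuity. For Krt8, 6 of the 24 steps between neighbours in the order had a ratio whose counting interval excluded 1, for Krt18 5, for Krt19 1 and for Krt7 1. The XEN-like culture stood above the next library 6.70-fold (5.95 to 7.58) for Krt8, 3.15-fold (2.74 to 3.63) for Krt18 and 16.2-fold (13.2 to 20.1) for Krt19. For Krt18 that next library was ectoderm-like replicate 2, and for Krt19 it was the whole culture at 96 h. Krt7 had its highest level in the whole culture at 96 h, above the 84 h library by 1.86-fold (1.00 to 3.57), and not in the XEN-like culture.

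The unsorted 96 h culture was above both sorted populations in Krt7. The ratio was 5.90 and 2.54 to ectoderm-like replicates 1 and 2 and 10.8 and 6.00 to XEN-like replicates 1 and 2, with lower counting limits of 2.28, 1.22, 3.37 and 1.88. For Krt19 the ratios were 6.59, 2.09, 2.29 and 1.25, and the interval of the last was 0.871 to 1.82. Relative to Gapdh, which was at 3575 CPM in the 96 h culture and at 2322 to 2802 CPM in sorted cells, the ratios of Krt7 were 4.44, 1.97, 8.44 and 3.89, and the last of Krt19 turned to 0.811. Cells outside both gates were not sequenced on their own. Summed markers of trophoblast, a simple epithelium in which Krt7 is high, stood at 136.8 CPM in the 96 h culture, at 13.6 to 26.1 CPM in ectoderm-like and at 62.9 to 74.7 CPM in XEN-like cells. Most of this was Plac1, at 91.2 CPM at 96 h, 2.22 CPM and 7.75 CPM in ectoderm-like and 64.5 CPM and 52 CPM in XEN-like cells. Ascl2 was at 14.9 CPM in the 96 h culture against 0.646 to 2.78 CPM in the 4 sorted libraries. Gata3 was at 9.74 CPM in it against 1.82 to 15.6 CPM, and Cdx2 and Elf5 were at 0 UMIs in it. Of the 10 markers listed, 6 were higher in the 96 h culture than in all 4 sorted libraries. Beside Plac1 and Ascl2 these were Tfap2c and Tead4, both at 7.18 CPM in it, and Hand1 and Tpbpa, each at 4 UMIs in it. Gata3, Cdx2, Elf5 and Eomes were not. The part of these markers in the Krt7 level was not tested.

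The balance of the pair differed between the bulk libraries of the cell populations (plot of the Krt8 share). Krt8 gave 84.6% (65.1 to 95.6, exact Clopper-Pearson interval) of the UMIs of Krt8 and Krt18 together in mESC replicate 1 and 81.2% in replicate 2. At 48 h the share was 34.2% (25.5 to 43.8) and at 96 h 48.8% (44.8 to 52.7). In sorted ectoderm-like cells it was 31.5% (24.2 to 39.7) and 28.7% (24.1 to 33.6), although these replicates differed 3.03-fold in Krt18. In sorted XEN-like cells it was 62.3% (57.9 to 66.4) and 50.8% (45.1 to 56.5), both above both ectoderm-like libraries. The PDGFRA- gates lay between 10% and 27.6%, and the PDGFRA+ gate at 72 h was at 50.9% (44.9 to 56.9). The XEN-like culture was at 67.1% (65.2 to 69), and 7 UMIs in the ectoderm-like culture set no narrow limit, at 71.4% (29 to 96.3). These shares are of UMIs from 3′ ends, are given as a description with no test, and say nothing on the amounts of protein.

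**Figure D4:**
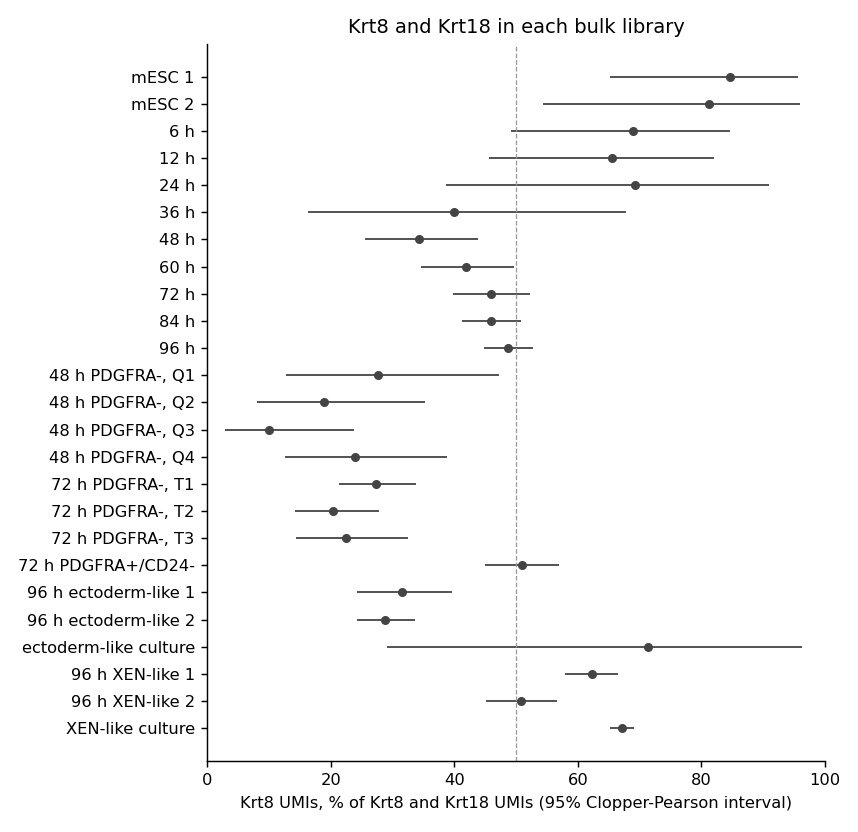
Share of Krt8 among the UMIs of Krt8 and Krt18 (percent) in each bulk library, with exact 95% Clopper-Pearson intervals. The mESC libraries are above 80%, sorted ectoderm-like cells are at 28.7% and 31.5%, and sorted XEN-like cells are at 50.8% and 62.3%.

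Of the 48 other keratin genes in the table, 21 had no UMI in any bulk library, 23 had 1 to 49 UMIs over all 25 libraries, and 4 had 50 or more. All 48 together had 1002 UMIs against 8192 UMIs of the 4 simple epithelial keratins, of which 3607 came from the XEN-like culture. Krt42 stood at 29.7 CPM and 8.27 CPM in mESCs (68 UMIs in replicate 1, where the 4 simple epithelial keratins had 30 UMIs together) and at 28.4 CPM to 10.9 CPM from 6 h to 36 h, and fell in both sorted populations (adjusted p = 0.00182 for XEN-like cells, adjusted p = 0.00251 for the ectoderm-like ones, by edgeR). Krt10, a keratin of the upper epidermis, had 325 UMIs spread over all 25 libraries, with its highest level of 19.3 CPM in the ectoderm-like culture. Krt23, and Krt20, a keratin of gut epithelium, rose in the XEN-like culture to 64.2 CPM (log2 fold change 6.41, SE 0.78, adjusted p = 0.000157) and to 13.1 CPM. Krt20 had 19 UMIs there and 0 in the sorted XEN-like cells, so that it was at least 13.4-fold higher (floor of 3 UMIs over both sorted libraries, adjusted p = 0.0136). Surface ectoderm markers, which include the epidermal keratins Krt5 and Krt14, summed to at most 26.7 CPM outside the XEN-like culture.

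Of 13 genes of the other intermediate filaments, 0 to 2 passed each test in either direction. Between sorted cells and mESCs 8 were tested. In XEN-like cells 0 rose and 1 fell, Nefm (log2 fold change -4.19), with a median of -0.57, where 12.3% of all genes rose and 10.5% fell. Nefm was at 50.7 CPM in mESC replicate 1 but at 1.31 CPM (3 UMIs) in replicate 2, against 2.54 CPM and 0 in XEN-like cells, so the groups overlapped. In ectoderm-like cells Nes rose (2.60) and Nefl fell (-2.04), with a median of -0.19, where 9.82% and 9.27% of all genes did. Between the sorted populations Lmna (2.57) and Nefl (2.37) were higher and Nes (-3.41) lower in XEN-like cells, at a median of -0.76, where 6.98% and 5.71% of all genes were. In the XEN-like culture 1 of 10 rose, the lamin gene Lmna (2.18), and 2 fell, Nefl (-5.41) and Lmnb1 (-2.22), with a median of -0.42, where 11.2% and 7.61% of all genes did. In the ectoderm-like culture, where the keratins fell, 2 of 10 rose and 0 fell, against 5.98% and 3.46% of all genes. Lmna was at 55.7 CPM there against 3.33 CPM and 0.646 CPM in sorted cells (log2 fold change 4.65), and Vim at 693 CPM against 169 CPM and 307 CPM (1.47, adjusted p = 0.0278 by edgeR). None of the 10 passed the test of the difference between the culture effects, at a median of -0.82.

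Genes of desmosomes, the junctions to which keratin filaments are anchored, and of plakins, which link filaments there and at other sites, were taken as 1 list of 15. In the XEN-like culture 10 were tested, 7 rose (among them the plakin Plec, 2.41) and 0 fell, where 11.2% and 7.61% of all genes did, with a median log2 fold change of 3.38 where the 4 keratins had 2.44. Pkp2 (plakophilin) stood at 31 CPM against 0.508 CPM and 1.82 CPM in sorted XEN-like cells (log2 fold change 4.80), and Perp at 31 CPM against 1.02 CPM and 1.82 CPM (4.42). In this fit a gene could pass the filter on low counts through the XEN-like culture library alone. The number of genes that rose and the median are thus partly set by that filter. In the ectoderm-like culture 1 rose, Jup (plakoglobin, 1.83), and 1 fell, Pkp2 (-3.72), with a median of -2.98, where 5.98% and 3.46% of all genes did. In the test of the difference between cultures 5 of 10 passed, all higher in the XEN-like lineage, where 3.76% of all genes were, with a median of 6.53. Perp and Dsg2 (desmoglein) had the largest differences, and both were at 0 UMIs in the ectoderm-like culture. Sorted cells differed from this. Of 8 genes of the list tested against mESCs, Dsc2 was the 1 to rise in XEN-like cells while Dsg2 and Jup fell, and in ectoderm-like cells Dsc2 (3.93) and Dsp (desmoplakin, 2.38) rose while Jup (-3.27) and Dsg2 (-2.18) fell. Shares over all genes were 12.3% and 10.5% for XEN-like and 9.82% and 9.27% for ectoderm-like cells. Between the sorted populations 1 of 8 passed, Pkp2, lower in XEN-like cells, where 5.71% of all genes were lower.

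Of the 16 genes of epithelial junctions, some rose and some fell in sorted cells. Against mESCs, 3 of 8 rose and 3 fell in XEN-like cells, where 12.3% and 10.5% of all genes did, led by the claudins Cldn6 (5.56) and Cldn7 (2.51) and by Cldn4 (-5.51) and E-cadherin, Cdh1 (-3.49). In ectoderm-like cells 2 rose, Cldn6 (4.28) and F11r (2.23), and 3 fell, led by Cdh1 (-3.14) and Cldn4 (-2.96), where 9.82% and 9.27% of all genes did. Between the sorted populations 0 of 8 passed, where 6.98% and 5.71% of all genes did. E-cadherin, which fell in both sorted populations, went from 74.4 CPM and 91.8 CPM in mESCs to 14.9 CPM in the 96 h culture. In the XEN-like culture 8 of 14 rose and 1 fell, Cldn6 (-4.40), with a median of 2.27, where 11.2% and 7.61% of all genes did. Cdh1 was at 192 CPM there, and Tjp3 had 16 UMIs against 0 in sorted XEN-like cells, at least 11.3-fold more. In this fit a gene could pass the filter on low counts through the XEN-like culture library alone, as Tjp3 did. The number of genes that rose and the median are thus partly set by that filter. In the ectoderm-like culture 0 rose and 3 fell, led by Cldn6 (-7.19) and Cdh1 (-4.32, 1 UMI left), with a median of -3.79, where 5.98% and 3.46% of all genes did. The difference between cultures passed for 7 of 14 genes, all higher in the XEN-like lineage, where 3.76% of all genes were, led by Ocln and Crb3.

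Lists of markers of other epithelia differed in direction in the XEN-like culture. A gene could pass the filter on low counts through that library alone, so the numbers that rose are partly set by the filter. All 10 stomach epithelium markers rose there, with a median log2 fold change of 10.90. Of 8 visceral endoderm markers tested 5 rose, led by Apoa1 and Afp, and 1 fell, Cubn, where 11.2% of all genes rose and 7.61% fell. Trophoblast markers, at 62.9 to 74.7 CPM in sorted XEN-like cells, summed to 6.21 CPM in the culture, and 1 of 3 tested was lower, Plac1 (log2 fold change -6.33, adjusted p = 0.00051 by edgeR). Surface ectoderm markers summed to 4.83 CPM there, and 0 of 2 tested passed. Of the XEN markers 0 of 11 rose and 1 fell, Dab2. In the ectoderm-like culture 0 of the 10 stomach markers passed the test, and their sum was 83 CPM against 82.3 CPM and 45.2 CPM in sorted cells. Of 8 visceral endoderm markers 1 fell there, Ttr, where 5.98% of all genes rose and 3.46% fell. The part of cells of these kinds in the keratin levels of the culture was not tested.

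Single cells were read by SCRB-seq, a UMI method in 384-well plates, at 9 times from 0 h to 96 h with 1 culture per time. Of 3456 wells, 2448 had more than 2000 UMIs and were kept, 137 of them at 96 h. All plates use the same 384 well names, and no pair of kept wells held identical counts. Krt8 stood at 0.0425 UMIs per 10000 UMIs at 0 h and at 0.587, 0.540, 0.604 and 2.55 (2.19 to 2.94) at 48, 60, 72 and 96 h. In CPM over all cells, Krt8 was 4.25 at 0 h and 9.25, 2.61, 11.8 and 7.78 at 6, 12, 24 and 36 h. The lower bulk Krt8 at 24 h and 36 h was thus not seen in the cells, though counting intervals of bulk and cells overlapped at each of these times. Krt18 was at 0 of 1884093 UMIs at 0 h, and at 0.506, 0.657, 1.27 and 1.32 per 10000 at 48, 60, 72 and 96 h. For its count of 0, the floor of 3 UMIs is 0.0159 per 10000 and the exact interval reaches 1.96 CPM. Both partners were higher from 48 h on than at 0 h, beyond counting error. Krt19 had 3 UMIs at 0 h and at 6 h, and 0 at 12, 24 and 36 h. It had 8 UMIs at 48 h and at 60 h, and 1 at 72 h. Its level stayed at or under 0.05 per 10000 up to 72 h and reached 0.427 at 96 h.

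At 96 h, after every cell was thinned to 2000 UMIs, a UMI of Krt8 was found in 29.9% of cells, of Krt18 in 18.2% and of Krt19 in 8.03%. Without thinning the shares were 48.2%, 32.1% and 13.1%. Of the 137 thinned cells 6 held both Krt8 and Krt18, 35 held Krt8 alone, 19 held Krt18 alone and 77 neither. At 0 h, thinned Krt8 was found in 0.709% of cells and Krt18 in 0%. Median depth was 3938.5 UMIs per cell at 0 h.

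Krt7 was seen at 1 time above all in the SCRB-seq cells. At 60 h it had 51 UMIs in 34 cells, 0.296 per 10000, with 11 UMIs in 1 cell, and was found in 6.23% of thinned and 12.5% of unthinned cells. At 72 h it had 1 UMI and at 96 h 0 of 726759 UMIs. The bulk libraries gave another course. Bulk Krt7 was 6.00 CPM at 60 h, where the cells summed gave 29.6 CPM, and 16.4 (11.2 to 23.2) at 96 h, where the cells gave 0 (0 to 5.08). The counting intervals of bulk and cells were apart at these 2 of 9 times for Krt7. They were apart for Krt8 at 48 h (15.5 against 58.7 CPM in cells) and 96 h (160.4 against 255), for Krt18 at 48 h (29.7 against 50.6) and 72 h (76.8 against 127), and for Krt19 at 72 h (13.6 against 0.764). Whether bulk RNA and cells came from the same cultures is not given in the sources used here, so culture and method cannot be told apart.

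Clustering the 96 h cells on 829 variable genes, without the 4 keratins, gave 64 cells with more XEN marker UMIs (198 per 10000) and 73 other cells (78.6 per 10000). Summed ectoderm markers were at 11.5 and 27.3 per 10000. Neither cluster is given a cell type name here, since the other cells still held more XEN than ectoderm marker UMIs and the pluripotency gene Dppa5a was among the leading genes of the first. Their median depths were 4149 and 3947 UMIs. Krt8 stood at 3.16 per 10000 (2.58 to 3.82) in the cluster with more XEN marker UMIs and at 2.02 (1.60 to 2.52) in the other, a ratio of 1.56 (1.16 to 2.12). In the other cluster 1 cell held 23 of the 79 Krt8 UMIs. Krt18 was at 1.16 and 1.46, a ratio of 0.796 (0.516 to 1.22), and Krt19 at 0.506 and 0.358, a ratio of 1.41 (0.656 to 3.10). With cells above 4000 UMIs the ratio was 3.82 (2.15 to 7.39) for Krt8 and 1.15 (0.688 to 2.00) for Krt18. With clustering on log2 values it was 1.52 (1.08 to 2.17) for Krt8, 1.16 (0.742 to 1.87) for Krt18 and 0.797 (0.367 to 1.80) for Krt19. The ratios of Krt18 and of Krt19 lay on both sides of 1, and each of their intervals included 1. No direction is thus set for either gene. The share of thinned cells with a UMI was 39.1% and 21.9% for Krt8 and 18.8% and 17.8% for Krt18. Krt8 gave 73.1% (65.1 to 80.1) of the UMIs of the pair in the first cluster and 58.1% (49.3 to 66.5) in the other. With 1 plate there is no test, and the intervals cover counting error only.

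Full-length SMART-seq2 data, given as RPKM (reads scaled to gene length and library size, so that genes can be compared per length), covered 339 cells at 0, 12, 24 and 48 h, again with 1 culture per time. Above 1 normalized RPKM, Krt18 was found in 17.1%, 18.6%, 30.3% and 47.6% (36.4 to 58.9) of cells at these times. Krt8 was found in 35.4%, 36.0%, 31.5% and 28% (18.7 to 39.1). Krt18 was thus detected in a larger share of the cells of the 48 h culture than of the 0 h culture, beyond counting error alone, while the shares with Krt8 lay within counting error. The mean level moved from 6.80 to 61.6 RPKM for Krt18 and from 12.6 to 25 RPKM for Krt8 between 0 h and 48 h. Per length, Krt8 was thus the higher of the pair in mESCs and Krt18 at 48 h. Of cells with either gene, Krt8 was the higher in 26 of 37 at 0 h and Krt18 in 33 of 45 at 48 h. Krt19 and Krt7 were found in 7.32% and 8.54% of cells at 48 h and in 2.44% each at 0 h. Read depth cannot be told from these values.

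Among the 82 cells at 48 h, Krt8 was found most often in the cells with the most Pdgfra (plot of SMART-seq2 cells). Krt8 was found in 7 of the 10 cells with the highest Pdgfra (70%, 34.8 to 93.3) and in 5 of the 29 with the highest Cd24a (17.2%, 5.85 to 35.8), a set that shares 3 cells with the first. It was found in 12 of the 46 others (26.1%, 14.3 to 41.1). The interval of the first set overlapped those of both other sets. Krt18 was found in 6 of 10 (60%), 16 of 29 (55.2%) and 19 of 46 (41.3%). Mean Krt8 was 78.6, 6.41 and 25.7 RPKM, and mean Krt18 147, 22.6 and 64.9 RPKM. Krt7 was found in 0 of 10, 1 of 29 and 6 of 46 cells. Median summed XEN markers were 406 RPKM in the first set, 241 RPKM in the second and 190.0 RPKM in the others, those of ectoderm markers 1819, 2980 and 2186 RPKM, and those of pluripotency markers 731, 646 and 1066 RPKM. Since Pdgfra is a XEN marker and Cd24a an ectoderm marker, these sums hold the genes by which the cells were chosen. Cells are not replicates, so no test was made.

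**Figure D5:**
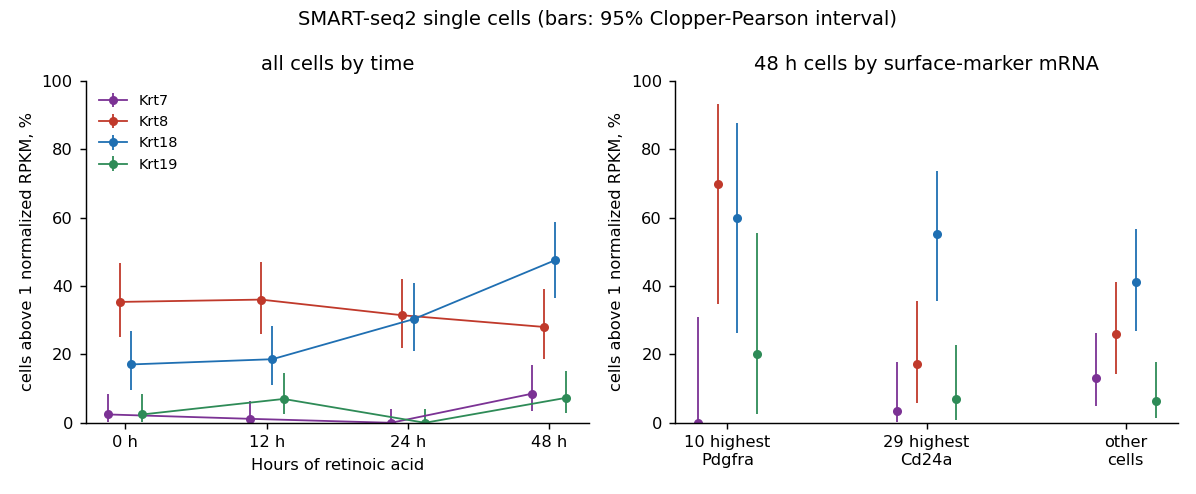
SMART-seq2 cells with more than 1 normalized RPKM of each keratin (percent) at 0, 12, 24 and 48 h, and at 48 h in the 10 cells with the highest Pdgfra, the 29 with the highest Cd24a and the 46 others. Bars are exact 95% Clopper-Pearson intervals. Krt18 goes from 17.1% to 47.6% over time. Krt8 is found in 70% of the 10 cells with the highest Pdgfra, with an interval that overlaps those of the other sets.

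The genes whose pattern over the 25 bulk libraries was most like that of each keratin were found by Pearson's r of log2(CPM + 1) among 12031 genes with at least 50 UMIs. The libraries differ in depth and some may share cultures, so r is a description. For Krt8 they were Fam134b (0.929), the laminin chain Lama1 (0.928), Fxyd3 (0.926), Lgi4 (0.924) and Pga5 (0.924). For Krt18 they were the endoderm factor Foxa2 (0.943), St3gal6 (0.927), Ptp4a1 (0.919), the endoderm factor Sox17 (0.918) and Pcbd1 (0.916). For Krt19 they were the membrane protease Tmprss2 (0.925), Krt8 (0.924), Fxyd3 (0.907), Clps (0.900) and Zfp706 (0.897), and for Krt7 Tmem43 (0.855), Podxl (0.821), Id2 (0.816), Igfbp5 (0.815) and Igf2 (0.807). Among the keratins, Krt8 was closest to Krt19 (0.924) and then to Krt18 (0.848), and Krt7 was closest to Krt18 (0.797) and least like Krt8 (0.647). Without the 2 cultures, 0 of these 5 genes remained among the 5 most alike for Krt8 and Krt18, and 1 of 5 for Krt19 and Krt7, although r with the genes named stayed at 0.900 to 0.943 for Krt8, 0.901 to 0.929 for Krt18, 0.809 to 0.894 for Krt19 and 0.802 to 0.853 for Krt7.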

How the data were processed

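Bulk RNA-seq, SCRB-seq and SMART-seq2 values of E14 cells were used as deposited. The authors' bulk and SCRB-seq values are UMI counts per gene, made by aligning reads with BWA 0.7.4 to RefSeq mRNAs of the mm10 mouse genome, per the submitters' processing notes and the study's methods, and deposited without normalization. Values come from 3′ ends, so levels of different genes depend on how well each 3′ end is captured. The SMART-seq2 values are RPKM made by the authors with TopHat and Cuffnorm, from which read depth cannot be recovered.

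The 4 keratins and all gene lists were chosen with earlier results of these data known. In the bulk table, 2 genes with text in place of a count were left out, as were 4 entries with a repeated name. Among the RPKM values, 10206 written as text were read as 0.

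Bulk counts were scaled to library totals (CPM). Sorted cells and mESCs were compared with edgeR 4.0.16 in R 4.3.3 (TMM, default filter on low counts, quasi-likelihood fit of 6 libraries, Benjamini-Hochberg adjustment, threshold 0.05), and cultures in a second fit of 8 libraries. There each culture was a group with a single library, so a gene could pass the filter through that library alone. DESeq2 1.42.0, no filter, a replicate block and leaving out each library were alternatives. The study's methods call the replicates biological. P-values cover the spread between these libraries. Exact permutation of 2 against 2 libraries cannot go below p = 0.333. Pearson's r between replicates was 0.957 (mESCs), 0.948 (ectoderm-like) and 0.952 (XEN-like). The remaining 19 bulk libraries are single and were described by exact Poisson intervals and exact conditional intervals of ratios. A count of 0 was read against a floor of 3 counts.

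Wells of SCRB-seq plates above 2000 UMIs were retained, and their cells thinned to 2000 UMIs for shares of cells, and 96 h cells were clustered by k-means (2 clusters) on the 5% most variable genes. No doublet caller was run. Each SMART-seq2 cell was rescaled so that its sum equals the median sum at 0 h. Named genes were the 4 keratins, other keratins with at least 50 UMIs, up to 2 genes per list and direction with the largest change past the test, and the 5 genes most like each keratin. Plec, Ascl2, Gata3, Tff1, Cdh1 and Vim values over libraries, the Dppa5a values, and Elf5, Cdx2 and the other trophoblast markers named were given after their values were seen. So were the lineage markers that rose in the other sorted population. The count fit and the clustering were tested on simulated data. Python 3.11.15, numpy 2.4.6, pandas 2.3.3, scipy 1.17.1 and matplotlib 3.10.9 were used.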

Additional observations from a re-analysis of the deposited data

Results flagged for a closer look

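The change from sorted cells to the culture library differed between the lineages for 3 of the 4 keratins in the edgeR fit of 8 libraries, where 3.76% of all genes passed in this direction and 2.19% in the other. The difference was 8.81 for Krt18 (adjusted p = 0.000475), 8.52 for Krt19 (adjusted p = 0.000589) and 6.95 for Krt8 (adjusted p = 0.000513) on the log2 scale. Each culture has 1 library, assumed to vary like the replicated groups, so no spread between cultures enters these p-values and the difference holds for these libraries. The cultures also differ in growth (adherent against floating aggregates) and age, which cannot be told apart from the lineage.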

How the results depend on the processing

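Of the 90 tests of the 4 keratins under alternatives other than leaving out a library, 89 kept their direction and side of the threshold. The exception was Krt7 in the difference between culture effects, 4.93 without the filter on low counts (adjusted p = 0.0493). With a library left out, 116 of 126 kept both. The 126 include fits in which the library left out was of no group compared. All that did not keep both left out a library of a group compared. Genes called were 1140 with DESeq2 in the XEN-like culture (2114 with edgeR), 463 with DESeq2 and 1681 without the filter in the ectoderm-like culture (1060), and 1211 without the filter for the difference (668). SCRB-seq shares at 96 h without thinning were 48.2% for Krt8 and 32.1% for Krt18, and that of Krt7 at 60 h was 12.5%. Krt8 in the other 96 h cluster was 0.815 per 10000 among 25 cells above 4000 UMIs, against 2.02, and the ratio of the clusters was 3.82 against 1.56. Relative to Gapdh, the whole 48 h culture over its PDGFRA- gates was 1.71 for Krt8 and 0.806 for Krt18, and the 96 h culture over XEN-like replicate 2 was 0.811 for Krt19. The cause of these shifts was not tested.

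Leaving out 1 library at a time gave 1265 to 1953 genes called for XEN-like cells against mESCs, 862 to 1748 for ectoderm-like cells, 262 to 1370 between the sorted populations, 1301 to 2427 for the XEN-like culture, 288 to 1439 for the ectoderm-like culture and 164 to 909 for the difference. For ectoderm-like cells against mESCs, Krt8 ranged from 1.40 to 2.94 and Krt19 from 1.44 to 3.23. Between the sorted populations, Krt8 ranged from 1.23 to 2.77 and Krt18 from -0.45 to 1.29. In the XEN-like culture Krt18 ranged from 1.80 to 2.46, and in the ectoderm-like culture Krt19 from -4.54 to -2.70.

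Replicate numbers 1 and 2 recur in the sorted populations, and the differences between replicates correlated at 0.326 over 8945 genes, but 2 pairs cannot show that the numbers pair the samples. With the replicate number as a block, 2400, 1973, 1338, 2453, 1239 and 778 genes were called in the 6 comparisons, in the order above. The block changed no call of a keratin. Krt8 was at 1.93 (adjusted p = 0.00963) and Krt19 at 1.19 (adjusted p = 0.0507) between the sorted populations. Krt7 had at most 32 UMIs in a bulk library, so its counting intervals are wide.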
